A study of Mus musculus with 13 samples.

Results

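The genes described here are 34 markers of macrophages and neutrophils, the phagocytes of the myeloid lineage, read in whole small cell lung cancer tumours of the mouse. They were taken by gene name from the deposited count table, in which each of the 34 names had 1 row among 54532 genes. All 34 passed the filter on low counts and were tested. Tumours were taken at necropsy from untreated mice of a pure congenic BL6J background that carry a Cas9 gene silenced by a lox-stop-lox cassette. Every tumour is labelled RPP, which in this model is known to stand for guides against Rb1, Trp53 and Rbl2, so the groups share these 3 targets. Of the 13 tumours, 7 received a guide against Kdm6a (sgKdm6a), the X-linked gene of a histone H3 lysine 27 demethylase, and 6 a control guide (sgControl). The labels give neither the age of the mice nor which tumours shared an animal, but the sgKdm6a titles hold 4 numbers, and for 3 of these the number recurs in a second tumour. Y-linked genes, with levels given below, were nearly absent in most sgKdm6a tumours and present in most sgControl tumours. Except in the alternatives that sum or correlate tumours of the same title number, the p-values below take every tumour as independent. They measure only the spread between these tumours.

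Macrophages and neutrophils arise from myeloid precursors under the transcription factor PU.1, encoded by Spi1, and depend on the growth factor receptors CSF1R and CSF3R. In the lung, alveolar macrophages line the air spaces and clear surfactant and debris, while interstitial and tumour macrophages are fed by blood monocytes. Both phagocytes recognise prey through pattern recognition and Fc receptors, signal through adaptors that carry tyrosine activation motifs, and kill with lysozyme, proteases, pore-forming proteins and the NADPH oxidase. Within a mouse lung, alveolar type 2 cells also make some Lyz2, and several of the receptors are shared with dendritic cells. In bulk tissue, fewer cells of a type and less RNA per cell cannot be told apart.

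The deposited table held 16835726 to 22910187 counts per tumour, at which 3 counts, taken as the detection limit for counting error, were 0.131 to 0.178 CPM, the usual depth-scaled count, here per unscaled total. Neuroendocrine markers, which define the tumour cells, were present in every tumour, with 3562 to 17891 summed CPM over 12 genes in sgKdm6a tumours, 4860 to 10002 in sgControl replicates 1 to 5 and 4381 in sgControl replicate 6. Kdm6a itself was at 42.5, 57.2 and 91.2 CPM (lowest, median and highest) in sgKdm6a tumours and at 51.6, 61.8 and 112 CPM in sgControl tumours. The groups overlapped, and counts per gene do not show whether the gene was edited, so they do not check the labels. sgControl replicate 6, titled t645, stood apart in other genes. Summed over 22 alveolar, endothelial and fibroblast genes, the sgKdm6a tumours held 430 to 1626 CPM, sgControl replicates 1 to 5 held 1237 to 2194 CPM and sgControl replicate 6 held 17518 CPM. Each result below is therefore given with all 13 tumours and with the 12 that remain without it.

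The promoters of these genes are shown because the members share the lineage factor PU.1, whose core motif GAGGAA can be searched for. RefSeq promoters (GRCm38.p6, 250 bases before to 50 after a gene start) were matched for 27 of the 34 members, as 31 windows. GAGGAA or its reverse complement TTCCTC lay in 22 of these 31 windows (71.0%), against 28.3% of all 32851 windows of this length. The longer form GAGGAAGT, which contains the core, lay in 5 of 31 (16.1%) and in 3.20% of all windows, and TTGCNNAA, a part of the palindrome bound by C/EBP factors, in 7 of 31 (22.6%) and in 10.8%. Both strands were searched. Some members have several windows, in part overlapping. By gene, 20 of the 27 members carried the core, 5 the longer form and 6 the C/EBP part. A match is only a match of letters.

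The 5 members with GAGGAAGT are printed, 5′ to 3′ on the gene's strand, with every GAGGAA or TTCCTC in capitals. They are C1qc at chr4:136892865-136893164 (minus strand), Ctss at chr3:95526536-95526835 (plus strand), Fcgr4 at chr1:171018676-171018975 (plus strand), Mmp8 at chr9:7558179-7558478 (plus strand) and S100a8 at chr3:90668821-90669120 (plus strand).
C1qc: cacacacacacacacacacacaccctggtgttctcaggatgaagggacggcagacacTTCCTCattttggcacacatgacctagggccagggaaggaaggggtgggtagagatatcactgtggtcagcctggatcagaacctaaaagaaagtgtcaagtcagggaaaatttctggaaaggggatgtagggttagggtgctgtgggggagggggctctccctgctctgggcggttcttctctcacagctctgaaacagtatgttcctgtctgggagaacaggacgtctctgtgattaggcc
Ctss: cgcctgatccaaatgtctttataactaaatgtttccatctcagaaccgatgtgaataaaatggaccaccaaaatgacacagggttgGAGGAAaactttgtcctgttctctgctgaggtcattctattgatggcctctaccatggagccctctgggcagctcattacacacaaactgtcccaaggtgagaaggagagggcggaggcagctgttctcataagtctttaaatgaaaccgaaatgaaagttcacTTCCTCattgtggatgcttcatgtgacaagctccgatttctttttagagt
Fcgr4: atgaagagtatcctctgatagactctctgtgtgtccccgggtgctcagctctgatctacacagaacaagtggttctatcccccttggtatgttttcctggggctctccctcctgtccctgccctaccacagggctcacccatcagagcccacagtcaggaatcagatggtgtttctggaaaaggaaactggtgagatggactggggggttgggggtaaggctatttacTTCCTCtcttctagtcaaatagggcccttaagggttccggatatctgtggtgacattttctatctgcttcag
Mmp8: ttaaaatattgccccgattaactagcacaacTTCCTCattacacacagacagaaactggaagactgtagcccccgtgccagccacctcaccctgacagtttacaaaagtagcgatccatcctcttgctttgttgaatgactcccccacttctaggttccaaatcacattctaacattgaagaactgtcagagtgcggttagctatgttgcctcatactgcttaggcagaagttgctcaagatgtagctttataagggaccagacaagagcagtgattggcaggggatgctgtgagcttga
S100a8: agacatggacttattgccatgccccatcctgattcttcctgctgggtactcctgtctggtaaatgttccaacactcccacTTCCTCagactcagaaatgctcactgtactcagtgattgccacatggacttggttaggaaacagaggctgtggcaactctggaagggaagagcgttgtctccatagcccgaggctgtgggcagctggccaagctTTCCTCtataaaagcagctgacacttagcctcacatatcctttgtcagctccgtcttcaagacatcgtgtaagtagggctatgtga
All 5 windows carry the longer motif on the reverse strand, as ACTTCCTC. It starts 24 bases before the gene start in Fcgr4, 2 bases before it in Ctss, 172 in S100a8 and 195 in C1qc, and lies furthest upstream in Mmp8.

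With all 13 tumours, every member had a lower fitted level in sgKdm6a than in sgControl tumours, with a median log2 fold change of -2.22 against -0.0017 for all 16575 genes tested. At an unadjusted p under 0.05 in edgeR's quasi-likelihood test, 29 of 34 members were lower and 0 higher, where 6.97% of all genes were lower and 3.18% higher. With counts summed over the title numbers that sgKdm6a tumours share, 9 were lower and 0 higher (3.36 and 2.18% of all genes), and in limma-voom with a correlation within title numbers 2 were lower and 0 higher (2.64 and 2.64% of all genes). None of the 34, and 0 genes in all (0%), passed an adjusted p of 0.05; the smallest adjusted p among the members was 0.419. Without sgControl replicate 6 the median log2 fold change of the members was -0.24, and 2 of 34 were lower and 0 higher at an unadjusted p under 0.05. In that fit 2.79% of 16831 genes were lower and 2.75% higher, 0 genes passed the adjustment, and the smallest adjusted p among the members was 0.859. The fitted direction turned for 9 members. The groups overlapped for all 34 members with and without that tumour, where 0.163% of all genes tested lay lower and 0.121% higher in every sgKdm6a than in every sgControl tumour, and 0.278% and 0.163% without it. Limma-voom with quality weights, which lowers the weight of tumours that deviate, left 2 of 34 members lower and 0 higher at an unadjusted p under 0.05 in 13 tumours, against 5.07 and 4.34% of all genes.

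**Figure D1:**
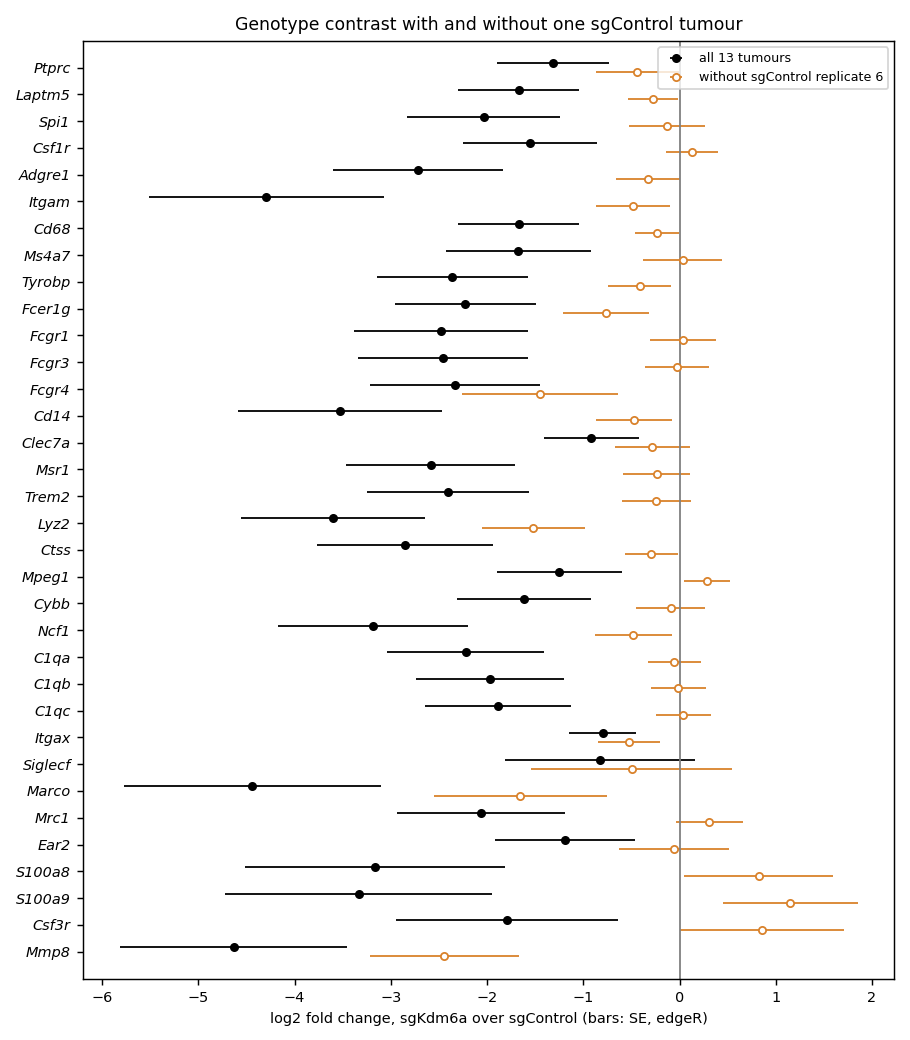
Log2 fold change of each member, sgKdm6a over sgControl, with its standard error from edgeR, in all 13 tumours (filled) and without sgControl replicate 6 (open). All 34 filled points lie below 0 with a median of -2.22, and the open points range from -2.44 for Mmp8 to 1.15 for S100a9 around a median of -0.24.

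The levels in 1 tumour separate these fits. sgControl replicate 6 was the highest of 13 tumours for 33 of 34 members, the exception being Siglecf, while it was the highest for 22.0% of all genes tested. Its CPM over the median of the other 5 sgControl tumours was 2.07 to 120.0 across the members, with a median of 23.5, against a median of 0.936 over all genes. The 34 genes together took 2.27% of its counts (95% Wilson interval 2.26 to 2.27%). They took 0.0592 to 0.146% in the sgKdm6a tumours and 0.0867 to 0.232% in the other sgControl tumours. Such intervals cover counting error only.

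**Figure D2:**
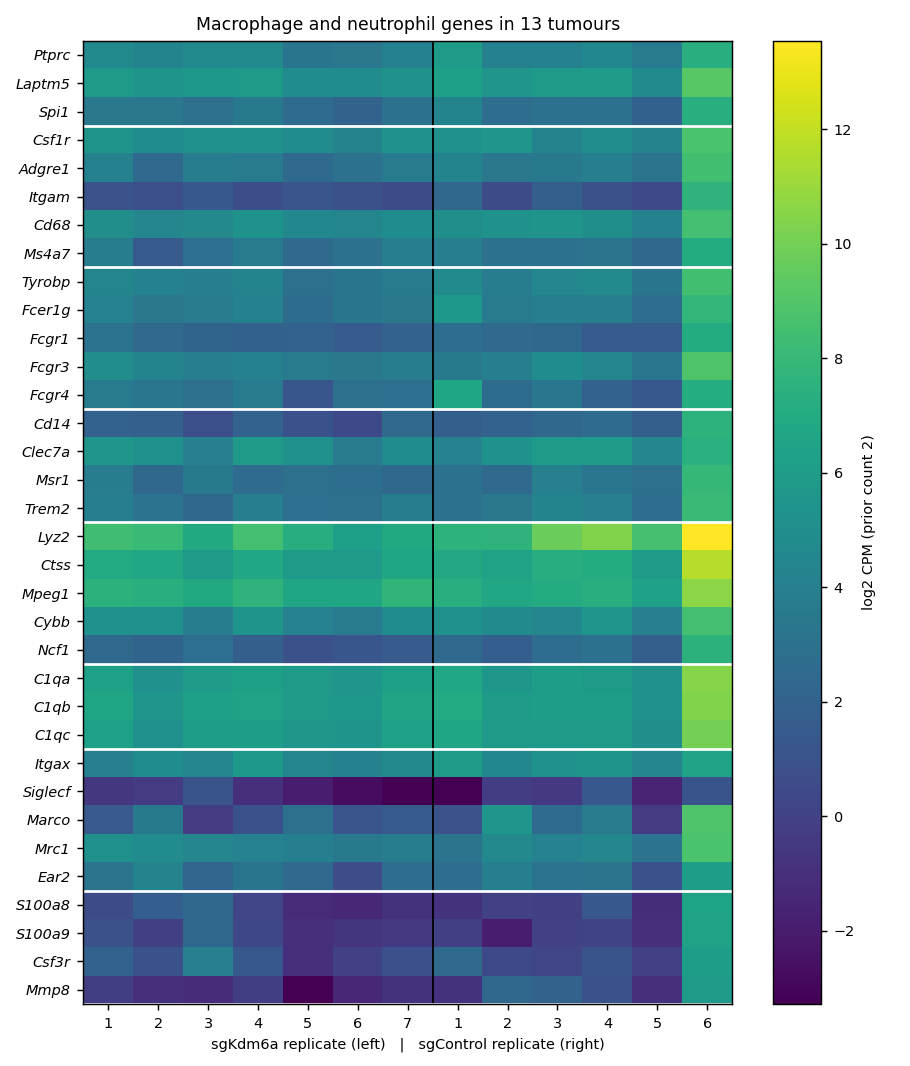
Log2 CPM of the 34 members (rows, ordered by role, white lines between roles) in 7 sgKdm6a (left) and 6 sgControl tumours (right), numbered by replicate. All rows share a colour scale. The column of sgControl replicate 6 is brightest for 33 members. Within their rows, Fcgr4 in sgControl replicate 1, Marco in sgControl replicate 2 and Csf3r in sgKdm6a replicate 3 also stand out.

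The leukocyte identity genes were Ptprc, the CD45 phosphatase of all white blood cells, Laptm5, a lysosomal membrane protein of leukocytes, and Spi1. Ptprc was at 9.63, 19.9 and 27.9 CPM (lowest, median and highest) in sgKdm6a tumours and at 12.7, 20.5 and 163 CPM in sgControl tumours. With all tumours the fold change of Ptprc on the log2 scale was -1.31 (SE 0.58) with an edgeR adjusted p of 0.473, and without sgControl replicate 6 of -0.44 (SE 0.43), with an edgeR adjusted p of 0.946. The highest Ptprc level among the other 12 tumours was 64.8 CPM, in sgControl replicate 1. Spi1 was at 4.17, 8.36 and 11.5 CPM in sgKdm6a tumours and at 3.80, 7.87 and 161 CPM in sgControl tumours, so the medians differed little and 1 tumour set the range. Its log2 fold change was -2.04 (SE 0.79) with and -0.13 (SE 0.39) without replicate 6. Laptm5 had a median of 44.0 CPM in sgKdm6a and 58.6 CPM in sgControl tumours, with 576 CPM in replicate 6, and log2 fold changes of -1.67 (SE 0.63) and -0.27 (SE 0.26).

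Surface markers of macrophages were likewise highest in replicate 6. Csf1r, the receptor for the macrophage growth factor CSF1, was at 18.5, 35.7 and 43.9 CPM in sgKdm6a tumours and at 18.6, 34.6 and 436 CPM in sgControl tumours. Its log2 fold change was -1.56 (SE 0.70) in 13 tumours and 0.13 (SE 0.27) in 12. Adgre1, which encodes F4/80, was at 5.42 to 16.9 CPM in sgKdm6a and 9.0 to 350 CPM in sgControl tumours, with 3 sgKdm6a tumours (replicates 2, 5 and 6) below every sgControl tumour. Itgam, the CD11b integrin chain of macrophages, monocytes and neutrophils, showed the widest gap of all members between replicate 6 and the rest. It was at 1.42, 1.79 and 2.47 CPM in sgKdm6a tumours, at 1.25 to 5.18 CPM in 5 sgControl tumours and at 207 CPM in replicate 6, which is 120.0 times the median of those 5. Its log2 fold change was -4.30 (SE 1.22) in 13 tumours and -0.48 (SE 0.38) in 12. Cd68, a lysosomal glycoprotein, and Ms4a7, a tetraspanning macrophage protein, reached 373 and 133 CPM in replicate 6, and their log2 fold changes in 12 tumours were -0.23 (SE 0.23) and 0.031 (SE 0.41).

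The adaptors Tyrobp (DAP12) and Fcer1g (the Fc receptor gamma chain) pass signals from receptors without kinase domains of their own. Tyrobp had a median of 15.5 CPM and a maximum of 21.9 CPM in sgKdm6a tumours, and was at 9.52, 24.5 and 357 CPM in sgControl tumours, with log2 fold changes of -2.36 (SE 0.79) and, without replicate 6, -0.42 (SE 0.33). Fcer1g had a median of 10.8 CPM in sgKdm6a and 15.3 CPM in sgControl tumours, where replicate 1 held 52.5 CPM and replicate 6 held 237 CPM, with log2 fold changes of -2.23 (SE 0.73) and -0.76 (SE 0.44). The 3 activating Fc receptors for IgG behaved unequally among the tumours. Fcgr1, the high-affinity receptor, was at 3.03 to 8.66 CPM in sgKdm6a tumours and 2.94 to 6.88 CPM in 5 sgControl tumours, and Fcgr3 at 10.4 to 31.8 and 10.1 to 29.7 CPM. For these 2 genes the log2 fold changes in 12 tumours were 0.033 (SE 0.34) and -0.029 (SE 0.33). Replicate 6 held 136 CPM of Fcgr1 and 481 CPM of Fcgr3.

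Fcgr4, the mouse Fc receptor for IgG2a and IgG2b that is abundant on non-classical monocytes, was the most uneven of the 3. It was at 2.28, 7.67 and 13.4 CPM in sgKdm6a tumours, while the sgControl tumours held 96.0, 6.22, 10.2, 3.97, 2.34 and 143 CPM in replicates 1 to 6. sgControl replicates 1 and 6 were thus far above the other tumours. sgControl replicate 1 was the highest of the 12 tumours for 12 members in all, among them Fcer1g, Spi1, Adgre1, Itgam, Tyrobp and the C1q genes, though not for Csf1r or Cd68. Cd300e, an activating receptor of the same monocytes, was at 32.9 CPM in sgControl replicate 1, at most 4.32 CPM in sgKdm6a and at most 0.82 CPM in the other sgControl tumours, replicate 6 included. Treml4 and Ace, listed beside it among monocyte genes, were at 2.11 and 47.7 CPM there, within the range of the other tumours. The Fcgr4 log2 fold change was -2.33 (SE 0.88) in 13 tumours and -1.45 (SE 0.81) in 12 (edgeR adjusted p = 0.427 and 0.875). A fit without sgControl replicates 1 and 6 was not run. Fcgr3 and Fcgr4 are related genes, and how reads shared by them were counted is not given in the sources used here.

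**Figure D3:**
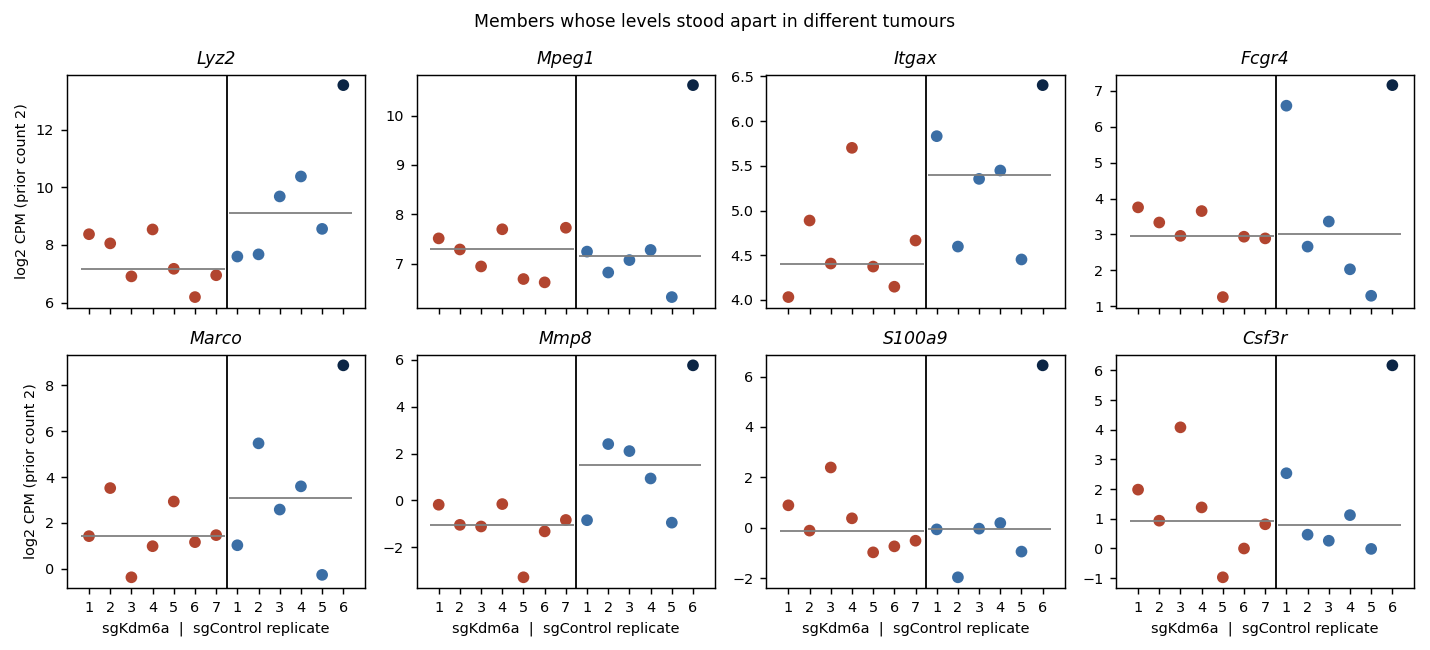
Log2 CPM of 8 members in each sgKdm6a (red, left) and sgControl tumour (blue, right; replicate 6 dark), with grey lines at the group medians and a vertical scale of its own for each gene. Replicate 6 is highest in all 8 panels, sgControl replicate 1 is near it for Fcgr4 at 96.0 CPM, and sgKdm6a replicate 3 is second for S100a9 and Csf3r.

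The pattern recognition and scavenger receptors were Cd14, the co-receptor for lipopolysaccharide, Clec7a (dectin-1, for beta-glucan), Msr1 (scavenger receptor A) and Trem2, a lipid receptor that signals through DAP12. Cd14 was at 1.24, 3.67 and 5.70 CPM in sgKdm6a tumours, at 3.38 to 6.05 CPM in 5 sgControl tumours and at 196 CPM in replicate 6. Clec7a had the smallest such gap of the 4, with 12.7 to 53.9 CPM in sgKdm6a tumours, 18.1 to 64.4 CPM in 5 sgControl tumours and 172 CPM in replicate 6. Clec7a was 1 of the 5 members that were not lower at an unadjusted p under 0.05 in 13 tumours (log2 fold change -0.92, SE 0.49). The deposited annotation classes Clec7a as a polymorphic pseudogene. For Msr1 the log2 fold change was -2.58 (SE 0.88) in 13 and -0.24 (SE 0.34) in 12 tumours, and for Trem2 it was -2.41 (SE 0.84) and -0.24 (SE 0.36).

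Lyz2, lysozyme M, was the member of highest median FPKM (deposited, per gene length), at 101 FPKM in sgKdm6a and 422 FPKM in sgControl tumours. On the CPM scale the sgKdm6a tumours held 332, 266, 120, 372, 144, 73.0 and 124 in replicates 1 to 7. The sgControl tumours held 194, 204, 822, 1329, 377 and 11945.5 in replicates 1 to 6. The groups overlapped, with 4 sgKdm6a tumours below every sgControl tumour and sgControl replicates 3, 4, 5 and 6 above every sgKdm6a tumour. The log2 fold change of Lyz2 was -3.60 (SE 0.96, edgeR adjusted p = 0.419) in 13 tumours and -1.52 (SE 0.54, edgeR unadjusted p = 0.0145, adjusted p = 0.859) in 12. Summed alveolar type 2 markers, 10 genes of a cell type that also makes Lyz2, were at 89.8 to 514 CPM in sgKdm6a tumours, 315 to 1899 CPM in 5 sgControl tumours and 10068 CPM in replicate 6. Their highest level among the 12 tumours was in sgControl replicate 4, as for Lyz2, and their part in the Lyz2 difference was not tested. Lyz1, its near-identical copy and itself on that list, was at 7.12 CPM or below in every tumour.

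The other 4 killing and digestion genes had log2 fold changes between -0.48 and 0.29 once replicate 6 was left out. Ctss, the lysosomal protease cathepsin S, was at 55.4, 99.6 and 128 CPM in sgKdm6a tumours and at 59.0 to 145 CPM in 5 sgControl tumours, with 3266 CPM in replicate 6. Its log2 fold change was -2.85 (SE 0.91) in 13 tumours and -0.29 (SE 0.28) in 12. Mpeg1, the pore-forming protein perforin-2, was at 98.4, 156 and 212 CPM in sgKdm6a tumours and at 80.0 to 155 CPM in 5 sgControl tumours. In 4 of 7 sgKdm6a tumours Mpeg1 was above each of these 5, and its log2 fold change in 12 tumours was 0.29 (SE 0.24), against -1.25 (SE 0.65) in 13. Cybb and Ncf1 encode the gp91 and p47 subunits of the phagocyte NADPH oxidase. Cybb, which is X-linked, was at 12.7 to 43.8 CPM in sgKdm6a and 16.3 to 44.7 CPM in 5 sgControl tumours, and in 12 tumours its log2 fold change was -0.092 (SE 0.36). Y-linked genes, 4 in number, summed to at most 0.27 CPM in sgKdm6a tumours apart from 344 CPM in replicate 3, and to 152 to 210 CPM in sgControl tumours apart from 0 in replicate 4. Their level thus went largely with the guide, so differences by guide and by Y-linked level cannot be fully told apart. With a term for them in 13 tumours the median log2 fold change of the 34 members was -1.30, with 1 member lower and 0 higher at an unadjusted p under 0.05 (2.50 and 4.09% of all genes). Ncf1 was at 1.77 to 7.21 CPM in sgKdm6a, 3.31 to 8.25 CPM in 5 sgControl tumours and 186 CPM in replicate 6, and its log2 fold change in 12 tumours was -0.48 (SE 0.40).

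C1qa, C1qb and C1qc encode the 3 chains of complement C1q, which macrophages make and secrete. C1qa was at 36.7, 64.2 and 82.9 CPM in sgKdm6a tumours and at 37.3, 62.8 and 1415 CPM in sgControl tumours. C1qb was at 46.7, 76.8 and 99.4 CPM and at 38.7, 67.7 and 1332 CPM in the same order, and C1qc at 35.8, 66.7 and 82.3 CPM and at 32.6, 55.0 and 1054 CPM. Without replicate 6, whose levels were 19.3 to 24.0 times the median of the other sgControl tumours, the highest tumour for all 3 was sgControl replicate 1. In 12 tumours the log2 fold changes of C1qa, C1qb and C1qc were -0.054 (SE 0.27), -0.015 (SE 0.29) and 0.041 (SE 0.28), in 13 they were -2.22 (SE 0.81), -1.97 (SE 0.77) and -1.88 (SE 0.76). The proportions of the chains differed little between tumours: C1qa made up 35.8 to 40.4% of their summed FPKM in sgKdm6a and 35.8 to 43.5% in sgControl tumours, and C1qc 19.1 to 21.5% and 17.4 to 20.9%. C1qa and C1qb lie on chromosome 4 with C1qc.

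**Figure D4:**
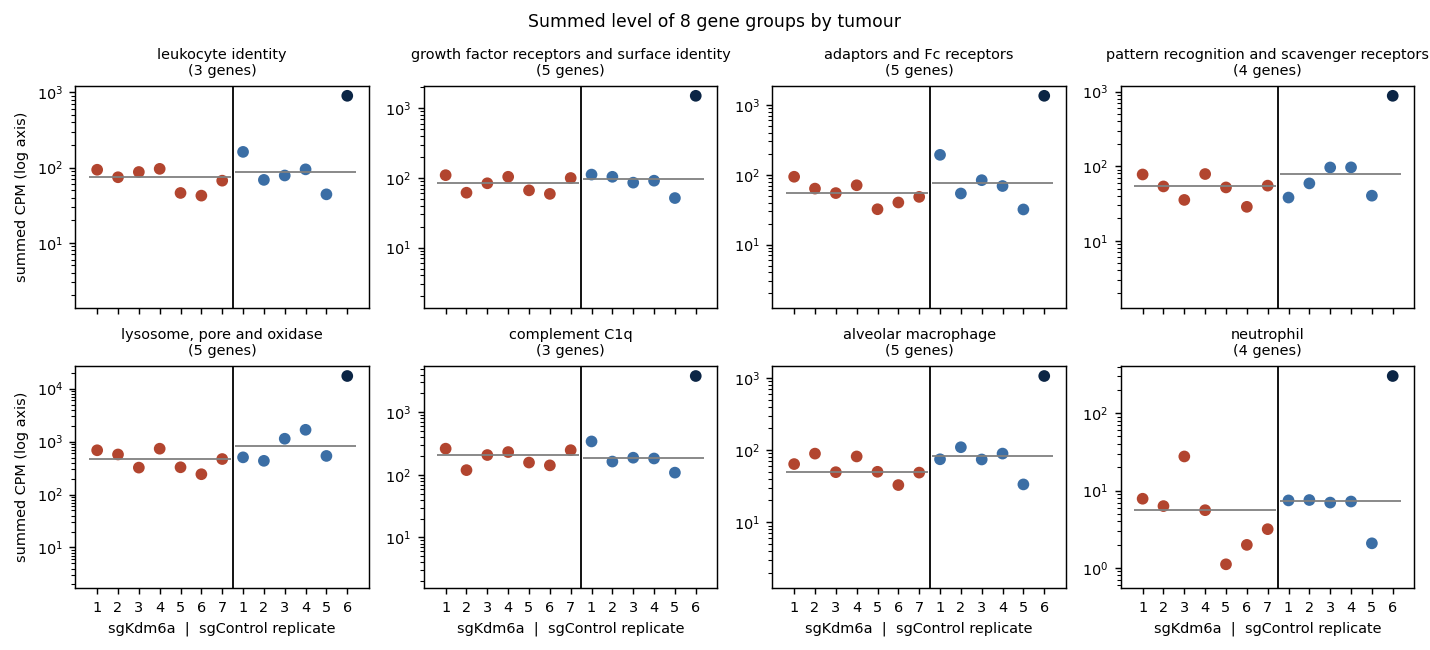
Summed CPM (log axis) of the members of each of 8 roles in 7 sgKdm6a (red) and 6 sgControl tumours (blue, replicate 6 dark), with grey lines at the group medians. The complement C1q panel spans 119 to 262 CPM in sgKdm6a and 109 to 342 CPM in 5 sgControl tumours, and the neutrophil panel shows sgKdm6a replicate 3 at 27.6 CPM.

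The 5 genes of alveolar macrophages differed in which tumours were high. Itgax, the CD11c integrin chain shared with dendritic cells, was at 16.3, 21.1 and 51.9 CPM in sgKdm6a tumours and at 21.8, 42.2 and 84.5 CPM in sgControl tumours, and replicate 6 was only 2.07 times the median of the other 5. In 4 of 7 sgKdm6a tumours Itgax was below every sgControl tumour, and the log2 fold changes of -0.80 (SE 0.35) in 13 and -0.52 (SE 0.32) in 12 tumours had edgeR adjusted p of 0.469 and 0.892. Siglecf, a sialic acid receptor that defines alveolar macrophages and eosinophils in mice, was low, with 0 to 40 counts in sgKdm6a and 0 to 54 counts in sgControl tumours. A count of 0, as in sgKdm6a replicate 7 and sgControl replicate 1, allows up to 3 counts. In replicate 6 there were 33 counts of Siglecf, fewer than in sgControl replicate 4 with 54, and its log2 fold change was -0.82 (SE 0.99) in 13 tumours and -0.50 (SE 1.04) in 12.

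Marco, a scavenger receptor of alveolar macrophages, was uneven among the tumours. It was at 2.58, 11.4, 0.67, 1.88, 7.55, 2.13 and 2.66 CPM in sgKdm6a replicates 1 to 7. Its lowest, median and highest levels were 0.73, 8.95 and 471 CPM in sgControl tumours, the highest being replicate 6, followed by replicate 2 at 44.4 CPM. The log2 fold change of Marco was -4.44 (SE 1.33) in 13 tumours and -1.65 (SE 0.90) in 12. Mrc1, the mannose receptor CD206, had a positive fitted value in 12 tumours, 0.31 on the log2 scale (SE 0.35), and was at 11.4, 17.9 and 35.3 CPM in sgKdm6a and at 8.79 to 24.5 CPM in 5 sgControl tumours. Ear2, an eosinophil-type ribonuclease of alveolar macrophages and monocytes with several close copies, was at 1.49 to 19.2 CPM in sgKdm6a and 1.87 to 67.9 CPM in sgControl tumours, and its log2 fold change in 12 tumours was -0.053 (SE 0.57).

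Of the 4 neutrophil members, 3 had positive and 1 a negative fitted value in 12 tumours. S100a8 and S100a9 encode the chains of calprotectin, the main cytosolic protein of neutrophils, and Csf3r the receptor for granulocyte growth factor. S100a8 was at 1.46, 3.29, 5.20, 1.08, 0.30, 0.30 and 0.46 CPM in sgKdm6a replicates 1 to 7, and at 0.46, 0.92, 0.82, 2.29, 0.36 and 88.2 CPM in sgControl replicates 1 to 6. Its partner S100a9 was at 1.75, 0.82, 5.15, 1.19, 0.41, 0.50 and 0.60 CPM in sgKdm6a and at 0.85, 0.15, 0.87, 1.04, 0.42 and 87.1 CPM in sgControl tumours. Csf3r was at 0.41, 1.81 and 16.8 CPM in sgKdm6a tumours and at 0.88, 1.67 and 72.1 CPM in sgControl tumours. After sgControl replicate 6, sgKdm6a replicate 3 held the most of all 3 genes. Their log2 fold changes in 12 tumours were 0.82 (SE 0.78), 1.15 (SE 0.70) and 0.86 (SE 0.85) for S100a8, S100a9 and Csf3r, against -3.16 (SE 1.35), -3.33 (SE 1.38) and -1.79 (SE 1.15) in 13. None passed in either fit.

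Mmp8, the neutrophil collagenase, had the negative one. It was at 0.78, 0.38, 0.36, 0.80, 0, 0.30 and 0.46 CPM in sgKdm6a replicates 1 to 7, and at 0.46, 5.20, 4.20, 1.81, 0.42 and 54.2 CPM in sgControl replicates 1 to 6. Its counts in sgKdm6a tumours were low, from 0 to 16. In 4 of 7 sgKdm6a tumours Mmp8 was below every sgControl tumour, and sgControl replicates 2, 3, 4 and 6 were above every sgKdm6a tumour. The log2 fold change of Mmp8 was -4.63 (SE 1.18, edgeR adjusted p = 0.419) in 13 tumours and -2.44 (SE 0.77, edgeR unadjusted p = 0.00786, adjusted p = 0.859) in 12, the largest size among the members in each fit. DESeq2 with all 13 tumours gave Mmp8, Lyz2 and Marco adjusted p of 0.00407, 0.0102 and 0.0141, where it called 0.246% of genes lower. At an unadjusted p under 0.05 it had 7 members and 5.65% of all genes lower. It gave no p to 24 of the 34 members, whose counts its outlier check set aside. Without sgControl replicate 6 DESeq2 called 0 of the 34, gave 1 no p and had 2 lower at an unadjusted p under 0.05, where 3.52% of all genes were lower.

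Of the 20 other neutrophil genes listed, some were at or near 0 and others were not. Ly6g and Ngp had at most 1 and 3 counts in any tumour, and Camp, Elane and Mpo at most 9, 4 and 12. In sgControl replicate 6 Clec4d was at 186 CPM, Il1b at 98.2, Clec4e at 71.4, Wfdc21 at 58.0, Mmp9 at 44.2, Trem1 at 16.9, Cxcr2 at 10.5 and Retnlg at 6.44 CPM, several of which other myeloid cells also express. In sgKdm6a replicate 3 Ltf, the lactoferrin gene that epithelia also express, was at 103 CPM, Il1r2 at 6.90 CPM and Cxcr2 at 4.27 CPM. Cxcr2 was at most 0.55 CPM in the other sgKdm6a and at most 1.17 CPM in the other sgControl tumours. Ly6g, the defining surface marker of mouse neutrophils, was not detected above the limit of 3 counts. The macrophage members Csf1r, Cd68, C1qa, C1qb and C1qc were far above the limit in every tumour.

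sgKdm6a replicate 3 also held genes of another myeloid lineage. Mast cell genes, which encode granule proteases and surface receptors of these cells, were mainly found there. The 7 listed genes of mast cells and basophils summed to 76.6 CPM in that tumour. They summed to at most 0.58 CPM in the other sgKdm6a and 0.49 CPM in the sgControl tumours. Tpsb2, a tryptase gene, was at 30.8 CPM, and Cpa3, mast cell carboxypeptidase, at 14.1 CPM, while Mcpt8, of basophils, had 0 counts. Kitl, the growth factor on which mast cells depend, was at 1533 CPM in the same tumour, at 19.7 to 343 CPM in the other sgKdm6a and at 19.9 to 211 CPM in the sgControl tumours. Without this tumour and sgControl replicate 6, the median log2 fold change of the 34 members was -0.21, with 2 lower and 0 higher at an unadjusted p under 0.05, against 3.33 and 3.45% of all genes.

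Within the sgKdm6a group, pairs of tumours that share a title number were set beside pairs of different numbers. The median absolute difference over the 34 members was 0.62 log2 CPM between replicates 1 and 2, 0.99 between replicates 4 and 5 and 0.57 between replicates 6 and 7. Over the 18 pairs of different numbers its median was 0.63 log2 CPM. The spread over those 18 pairs was not computed, so these values do not show whether tumours of a shared number are more alike. Replicate 4 was above replicate 5 for 30 of 34 members, replicate 7 above replicate 6 for 30, and replicate 1 above replicate 2 for 29. Among the 12 tumours, sgControl replicate 1 held the highest level of 12 members and sgControl replicate 4 of 6. sgKdm6a replicates 5 and 6 were among the top 3 of the 12 for 0 members.

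Related genes outside the 34 were read from lists drawn up for comparison. Kinases and partners of the activation motifs had a lower level in 8 of 13 genes, counted here and below at an unadjusted p under 0.05, with a median log2 fold change of -1.53, and 0 of 13 and -0.12 without replicate 6. Of 14 other macrophage genes tested, 11 were lower with a median of -2.12, and 1, Nos2 (-1.03, SE 0.47), was lower with a median of -0.13 without it. In replicate 6 the arginase gene Arg1 was at 1692 CPM, while the sgKdm6a tumours held 6.70 to 34.3 CPM and sgControl replicates 1 to 5 held 14.6 to 61.9 CPM. Ligands and receptors of the colony-stimulating factor family had 5 of 8 tested members lower and a median of -1.57, and 1 of 8 and -0.46 without replicate 6, that one being Il34, a second ligand of CSF1R (-1.14, SE 0.40). Monocyte genes, with 4 of 10 lower, and other alveolar macrophage genes, with 6 of 10, had 0 lower without that tumour, and integrin and actin genes of leukocytes had 4 of 8 lower with it and 0 of 8 without. Myeloid transcription factors had 6 of 13 tested genes lower, and without replicate 6 had 1 lower, Cebpb, and 1 higher, the nuclear receptor gene Nr4a1 (0.59, SE 0.25). Of 9 other neutrophil genes tested 4 were lower, and 1, Lcn2, without it.

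Cebpb and Lcn2, from these lists, separated the genotypes in all 13 tumours. Cebpb, a C/EBP factor of the myeloid lineage that epithelial cells also express, was at 13.5, 20.6 and 24.7 CPM in sgKdm6a tumours, at 36.5 to 44.9 CPM in 5 sgControl tumours and at 196 CPM in replicate 6. Lcn2, the neutrophil gelatinase-associated lipocalin that epithelia also make, was at 2.76, 5.05 and 12.7 CPM in sgKdm6a tumours, at 15.8 to 56.5 CPM in 5 sgControl tumours and at 2014 CPM in replicate 6. For neither gene did the groups overlap, a pattern of 0.163% of all genes tested in that direction. Both were named for a small p, which favours such a gap, so this share does not measure how rare it is for them. The log2 fold changes were -1.76 (SE 0.40) for Cebpb and -5.74 (SE 1.29) for Lcn2 in 13 tumours, each with an edgeR adjusted p of 0.419. In 12 tumours they were -1.05 (SE 0.17) and -2.15 (SE 0.45), each with an edgeR adjusted p of 0.551, so neither passed.

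Markers of other cell types also had lower fitted levels, more so with replicate 6. In 13 tumours 8 of 10 alveolar type 2, 6 of 10 alveolar type 1, 10 of 13 endothelial and 7 of 14 fibroblast and pericyte markers were lower at an unadjusted p under 0.05. Without replicate 6 these were 4, 3, 5 and 2, with medians of -1.80, -0.49, -0.70 and -0.097, against -0.24 for the 34 members. Their part in the members' results was not tested, apart from the fit with a tissue term given below. Of T and NK cell markers 5 of 16 were tested, and 0 were lower in 13 tumours. B and plasma cell genes had 2 of 8 lower, and 0 of 8 without replicate 6. Dendritic cell genes had 1 of 4 tested members lower and a median of -0.054. With a term for the mean of 22 alveolar, endothelial and fibroblast genes, the median of the 34 members in 13 tumours was 0.96, with 0 lower and 6 higher at an unadjusted p below 0.05 (3.92 and 4.10% of all genes). The 6 were Mrc1 (1.53, SE 0.58), Mpeg1 (1.25, SE 0.39), Fcgr1 (1.22, SE 0.56), Fcgr3 (1.15, SE 0.53), Ctss (1.01, SE 0.45) and Cybb (0.99, SE 0.34). None passed the adjustment. Without replicate 6 the same term gave a median of 0.13, with 0 lower and 1 higher (3.58 and 4.16% of all genes).

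**Figure D5:**
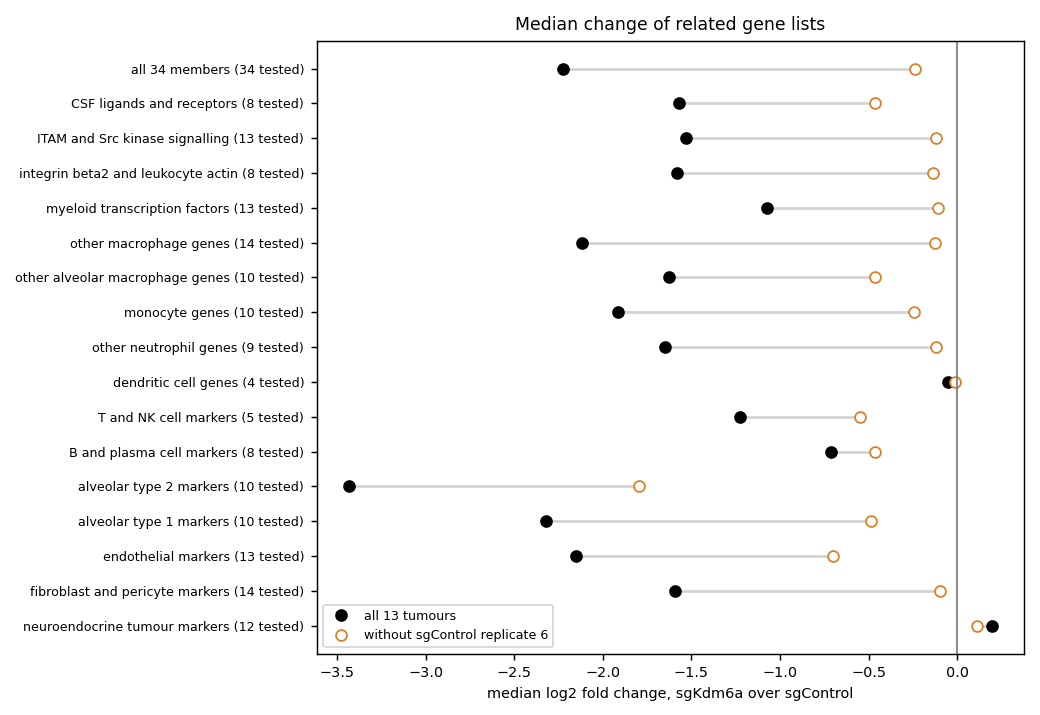
Median log2 fold change, sgKdm6a over sgControl, of the 34 members and of the lists of related genes and of other cell types, over the tested genes of each list, in all 13 tumours (filled) and without sgControl replicate 6 (open). The members' median is -2.22 and -0.24, and the alveolar type 2 list keeps the lowest median, at -3.43 and -1.80.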

How the data were processed

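RNA of 13 flash-frozen tumours was sequenced as read pairs from libraries that do not keep the strand, per the labels' protocols. STAR, DESeq2 and the mm10 build are listed in the submitters' processing notes, which name no counting program. The authors deposited raw gene counts and FPKM; the deposited FPKM equal count over gene length over 1 constant per tumour, and served for levels between genes and as an alternative. A deposited table of group means was not used.

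The deposited counts entered edgeR 4.0.16 (R 4.3.3) with filterByExpr, TMM factors, robust quasi-likelihood F test of genotype with no covariate, Benjamini-Hochberg adjustment over all genes tested, threshold 0.05. The standard error is the log2 fold change over the square root of F. CPM are counts per TMM-scaled library size; 2 was the prior count in log2 CPM. Where reads of opposite strands overlap they cannot be told apart. Scripts were tested on simulated data.

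Replicates were numbered in accession order. All 34 members were named, and of each other list up to 3 genes of smallest p; Cd300e, Treml4, Ace, Kitl, Arg1, the neutrophil genes beside Lcn2 and the mast cell list were described after their values were seen. A list of related genes is not reported here. The members and lists were chosen with earlier results of these data known. Alternatives included upper-quartile or RLE factors, DESeq2 1.42.0, a filter of 1 CPM in 6 tumours or none, limma 3.58.1 (voom with quality weights or with a correlation within title numbers, and trend on log2(FPKM + 1) and log2(FPKM + 0.1)), counts summed over title numbers, the number series of the titles (lower: 2 sgKdm6a, 3 sgControl; higher: 5 and 3) as a term or alone, terms for Y-linked or tissue genes, a prior count of 0.5, and leaving out each tumour.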

Additional observations from a re-analysis of the deposited data

Results flagged for a closer look

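In log2 CPM, the highest or lowest tumour of a genotype lay far from the others, by its gap to the nearest tumour over the whole range, in 24 of the 68 combinations of member and genotype examined. Each ratio exceeds Dixon's 95% critical value for its group size, which chance does in about 1 in 20 independent groups. The combinations share the same tumours and are not independent, so 24 of 68 cannot be read against that rate. In 22 the tumour was sgControl replicate 6, the highest of its group. The ratio was 0.859 for Cd14, 0.783 for Adgre1, 0.781 for Fcgr1, 0.778 for Mpeg1, and 0.776 for Ctss and for Ncf1. It was 0.744 for S100a9, 0.738 for Mrc1, 0.729 for Itgam, 0.724 for Tyrobp, 0.723 for Fcgr3, 0.722 for Csf1r, 0.712 for Msr1, 0.706 for Cd68, 0.703 for Trem2 and 0.700 for C1qa. It was 0.688 for S100a8, 0.675 for Cybb and for C1qc, 0.666 for Ms4a7, 0.661 for Laptm5 and 0.657 for C1qb. In the other 2, sgKdm6a replicate 5 was the lowest of its group, with a ratio of 0.654 for Fcgr4, at 45 counts, and of 0.627 for Mmp8, at 0 counts.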

How the results depend on the processing

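No member passed an adjusted p of 0.05 under any alternative but DESeq2, which called 26 genes higher and 39 lower, among them 3 members. The 29 members lower at an unadjusted p under 0.05 (6.97% of all genes) became 7 under DESeq2 (5.65%), which gave no p to 24 members. They became 9 with counts summed over title numbers (3.36%), 3 on log2(FPKM + 0.1) (3.63%) and 2 on log2(FPKM + 1) (3.16%). Limma-voom left 2 with weights (5.07%) and 2 with correlation (2.64%). The Y-linked term left 1 (2.50%), the lower series 0 (2.22%) and the tissue term 0 (3.92%). In the higher series, which holds sgControl replicate 6, there were 31 (8.01%). Those higher numbered 1 in the lower series (2.92%) and 6 under the tissue term (4.10%). Leaving out 1 tumour gave 2 to 31 lower, the 2 without sgControl replicate 6 (2.79%). The median log2 fold change was -0.23 with quality weights, -0.75 with the correlation, -0.73 on log2(FPKM + 1), -0.11 in the lower and -2.99 in the higher series, 0.96 with the tissue term and -2.46 to -0.24 leaving out 1 tumour. In 12 tumours, settings chosen after seeing the data were set against 2 lower and a median of -0.24. The tissue term gave 0 lower (3.58%), 1 higher (4.16%) and a median of 0.13. The higher series gave 1 lower (1.73%) and a median of 0.026. The causes were not tested. No paired analysis was possible because the genotypes share no title number.

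Directions turned as follows. With the tissue term the log2 fold change was 0.16 for Ptprc, 0.56 Laptm5, 0.93 Spi1, 1.12 Csf1r, 0.82 Adgre1, 1.15 Itgam, 0.66 Cd68, 1.04 Ms4a7, 0.64 Tyrobp, 0.11 Fcer1g, 1.22 Fcgr1, 1.15 Fcgr3, 1.03 Cd14, 0.41 Clec7a, 0.78 Msr1, 0.97 Trem2, 1.01 Ctss, 1.25 Mpeg1, 0.99 Cybb, 0.71 Ncf1, 1.05 C1qa, 1.02 C1qb, 1.07 C1qc, 0.11 Marco, 1.53 Mrc1, 0.94 Ear2, 2.55 S100a8, 2.91 S100a9 and 1.79 Csf3r. In the lower series it was 0.084 for Csf1r, 0.31 Fcgr1, 0.45 Fcgr3, 0.11 Clec7a, 0.022 Ctss, 0.35 Mpeg1, 0.38 Cybb, 0.44 Siglecf, 0.88 Mrc1, 0.48 Ear2, 1.69 S100a8, 1.03 S100a9 and 0.075 Csf3r. With quality weights it was 0.19 for Csf1r, 0.084 Ms4a7, 0.31 Mpeg1, 0.024 C1qb, 0.073 C1qc, 0.099 Mrc1 and 0.20 S100a9. Leaving out 1 tumour gave -1.78 to 0.13 for Csf1r, -1.90 to 0.031 Ms4a7, -2.72 to 0.033 Fcgr1, -1.46 to 0.29 Mpeg1, -2.12 to 0.041 C1qc, -2.31 to 0.31 Mrc1, -3.75 to 0.82 S100a8, -4.10 to 1.15 S100a9 and -2.90 to 0.86 Csf3r, each highest without sgControl replicate 6. Apart from the settings chosen after seeing the data, the other alternatives kept the direction of every member tested. Those settings all left out sgControl replicate 6, without which 9 members had positive values in the edgeR fit. They gave 20 positive with the tissue term, 18 in the higher series and 9 under DESeq2. Leaving out sgKdm6a replicate 3 as well gave 11. Depth limited Siglecf, Mmp8 and S100a9, with 3 counts or fewer in some tumours. Not all members were tested in every alternative: 33 were when sgKdm6a replicate 1 or replicate 4 was left out, and 31 under the filter of 1 CPM in 6 tumours.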
